A study of Mus musculus with 8 samples.

Results

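Ubiquitin is a small protein that is attached to other proteins by a relay of an activating E1, a conjugating E2 and a ligase E3, and deubiquitinases remove it again. Chains of ubiquitin send proteins to the proteasome or change their place and partners, and in skeletal muscle this system takes part in the loss of protein that follows the loss of a nerve. N6-methyladenosine, written m6A, is a methyl mark on adenosines of RNA that is typically dense near stop codons and in long exons and bears on how long a messenger RNA lasts and how well it is translated. The genes described here carry the names Usp (ubiquitin-specific peptidases), Otud (OTU-domain deubiquitinases), Ube1 to Ube4 (E1, E2 and some E3 enzymes) or Ubr (E3 ligases of the N-degron pathway, which read the first residue of a protein), and they were taken by name alone wherever at least 1 of 4 m6A peak lists held a peak of them. There were 52 such genes among the 5987 gene names with a peak. Classed by name and not by measured activity, they were 32 USP deubiquitinases, 5 OTU deubiquitinases, 11 E2 enzymes and 2 ligases, Ubr2 and Ube3a. Set apart from these classes were 2 genes that are no ubiquitin peptidases. They were Uspl1, a SUMO protease, and Usp6nl, which encodes a GTPase-activating protein for Rab proteins.

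The muscle was gastrocnemius, a calf muscle, of male C57BL/6 mice aged 10 weeks. The denervated group was taken 14 days after the nerve supply had been cut off, and the innervated group was the gastrocnemius of the opposite leg of denervated animals, so it came from animals with an injury and was not from intact ones. RNA bearing m6A was captured with an antibody (the IP library) and compared with uncaptured RNA (the input library), and each of the 4 IP libraries, 2 per group, gave 1 peak list called against its own input. The labels do not say that the replicates came from separate animals, so p-values measure the spread between these libraries, which may be technical. In bulk muscle, fewer cells of a type and less RNA per cell cannot be told apart. The lists held 9327 to 10300 peaks each, and read depth and transcript levels are unknown because no read counts were used, so the lack of a peak does not show the lack of methylation. A peak was found in 0 of 12 fibre markers (among them Acta1, Ckm and Myh4), 0 of 4 macrophage markers and 0 of 3 erythroid markers. Of the other cell types it was found in 3 of 4 endothelial markers (Cdh5 and Kdr in all 4 libraries), 3 of 4 fibro-adipogenic markers (Pdgfra in all 4), 2 of 4 satellite cell markers and 2 of 4 Schwann cell markers. Ngfr, a receptor of Schwann cells among others, had peaks in both denervated lists and neither innervated list.

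The 4 genes in which a peak covered an annotated start are shown with their sequence. There the bases under a peak can be read from the start sequences. RefSeq start sequences were available for 40 of the 52 genes. In 4 of them (10%) a peak covered an annotated start, against 297 of 4706 other called genes with such a sequence (6.31%). Usp2 had it in 3 libraries, both innervated ones and denervated replicate 2, at chr9:44084890-44084949 on the + strand. The others had it in 1 library each: Ube2h in innervated replicate 1 at chr6:30304510-30304569, Ube2v1 in denervated replicate 2 at chr2:167631976-167632035 and Ubr2 in denervated replicate 1 at chr17:47010503-47010562, all on the - strand. A covered start was not always the 5′ end of the gene's span. The overlapping peaks at the Usp2 start began 2507 bases after that end and ended 10621 bases before the 3′ end. The covered start of Usp2 thus lies inside the gene. At Ubr2, Ube2v1 and Ube2h the peaks began 354, 15 and 0 bases after the 5′ end. Each stretch holds 30 bases on either side of the start, 5′ to 3′ along the gene, in RefSeq's GRCm38.p6, the assembly of mm10. Capitals mark the transcribed bases under the peak, and the small letters before them lie upstream of the start.
Usp2: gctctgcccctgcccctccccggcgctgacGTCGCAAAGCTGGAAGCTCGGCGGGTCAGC
Ube2h: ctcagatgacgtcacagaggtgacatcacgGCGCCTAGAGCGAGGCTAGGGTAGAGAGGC
Ube2v1: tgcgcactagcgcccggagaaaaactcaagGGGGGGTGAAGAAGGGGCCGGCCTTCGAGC
Ubr2: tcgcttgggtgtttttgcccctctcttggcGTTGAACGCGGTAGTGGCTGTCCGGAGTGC
All 50 transcribed bases of the start sequence lay under the peak in each of the 4 genes. The letters GGAC, a common core of the m6A motif, were in 0 of these 4 windows of 50 bases on the transcript strand, and in 2 (Ubr2 and Usp2) when both strands were read. Over all 32851 start windows of 50 bases, with or without a peak, the shares were 18.9% and 33.3%. The longer GGACT, which contains GGAC, was in 0 of 4 on the transcript strand and in 1 (Usp2) on either strand, against 5.76% and 10.4% of all windows.

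Peaks were found in a larger share of the Usp and Otud genes than of the Ube2 genes. RefSeq lists 113 protein-coding mouse genes whose symbol fits the name rule, and 52 of them (46%) had a peak, against 5730 of 21787 other protein-coding genes (26.3%). In the Usp family 34 of 57 genes had one and in the Otud family 5 of 8, but in the Ube2 family it was 11 of 37 (29.7%). Of the ligases a peak was found in 1 of 6 Ubr genes, 1 of 3 Ube3 genes and 0 of 2 Ube4 genes, and no gene carried a Ube1 name. Genes without a peak included Usp7, Usp14 (a deubiquitinase of the proteasome) and Usp19, the ligases Ubr1 and Ubr4, and the E2 enzymes Ube2b and Ube2n; these examples were chosen after the lists were seen. Because transcript levels are unknown, these shares join the presence of a transcript with its methylation.

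By name, most of the 52 genes were called in every library, at a share not far from that of all called genes. Of the 52 genes, 29 (55.8%) were called in all 4 lists, where 48.8% of all called genes were. Peaks in 3 libraries were found for 6 genes, in 2 for 9 and in 1 for 8 (15.4%, against 19.6% of the other called genes). The classes differed in this count, which rests on few genes in the smaller classes. All 4 lists held 19 of the 32 USP deubiquitinases (59.4%), 4 of the 5 OTU deubiquitinases (80%) and 4 of the 11 E2 enzymes (36.4%), and they held neither ligase. Uspl1 and Usp6nl were in all 4.

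**Figure D1:**
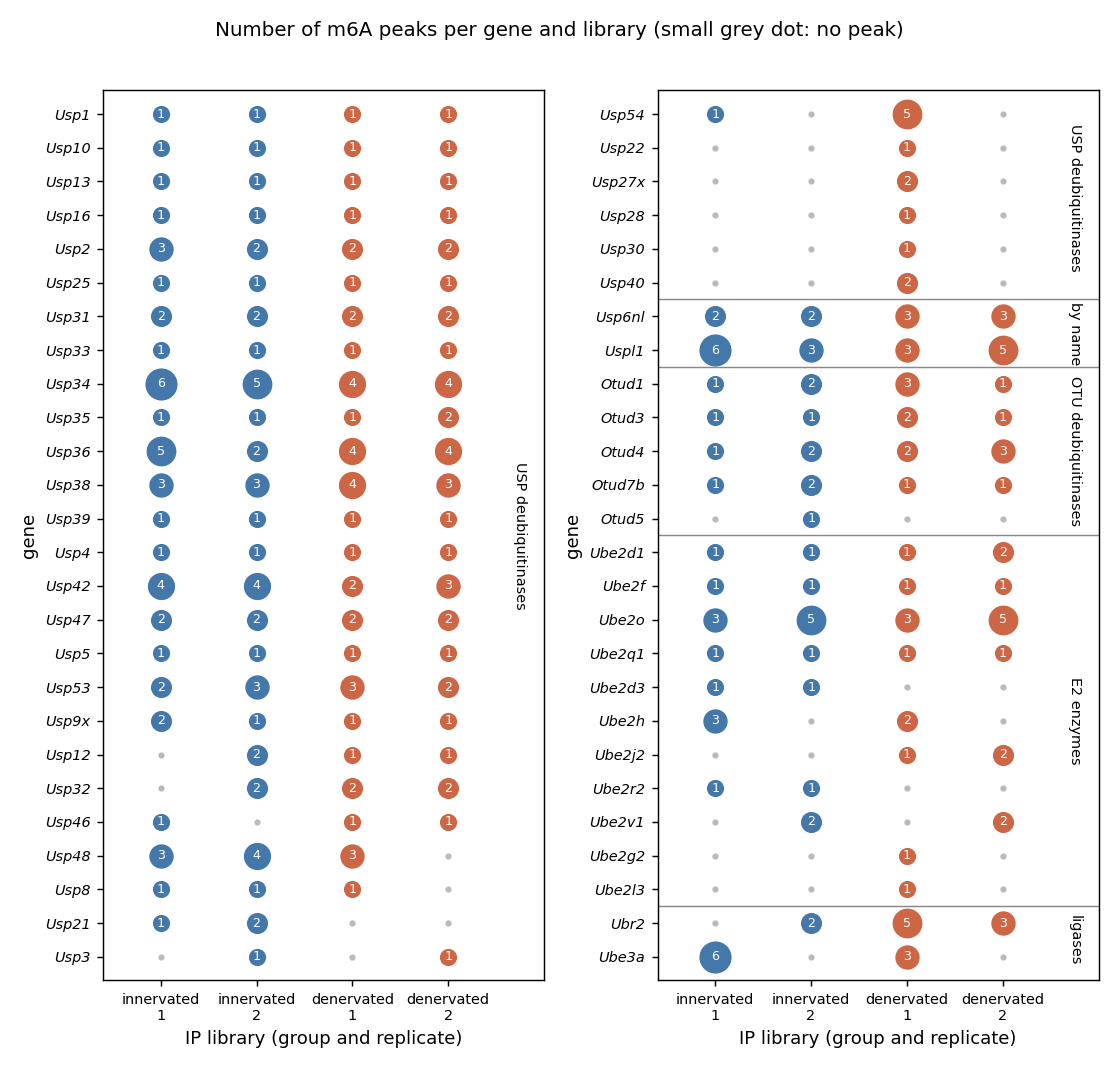
Number of m6A peaks of each of the 52 genes (rows, grouped by enzyme class; "by name" marks Usp6nl and Uspl1) in the 4 IP libraries (columns: 2 innervated, 2 denervated). Circle size and the number inside give the peak count, and a small grey dot stands for no peak. The 29 genes called in all 4 libraries fill their rows, while the 7 genes found in denervated replicate 1 alone have a single circle.

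To compare places rather than names, peaks of the lists were joined into regions where their blocks overlapped by 1 base or more on 1 strand. The 52 genes held 107 regions, of which 41 (38.3%) were called in all 4 libraries, against 34.6% of all regions. A further 11 regions were in 3 libraries, 22 in 2 and 33 in 1 (30.8%, against 32.3% of the regions of other genes). Every one of the 29 genes called in all 4 lists had at least 1 region called in all 4, so in these genes the lists shared bases as well as a gene name. The mean of the bases covered per library that had the region had a median of 500 for regions of 4 libraries, 265 for 3, 150 for 2 and 101 for 1. Wide peaks overlap more easily, so width and recurrence are not independent under this joining rule. Of the 33 regions of 1 library, 16 came from denervated replicate 1, 7 from each innervated replicate and 3 from denervated replicate 2. Within 300 bases of another region of the same gene lay 20 of these 33 regions, against 12 of the 41 regions of 4 libraries. For the source library and the distance, no shares over all regions are set beside these counts. They are therefore not read as traits of the ubiquitin genes.

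**Figure D2:**
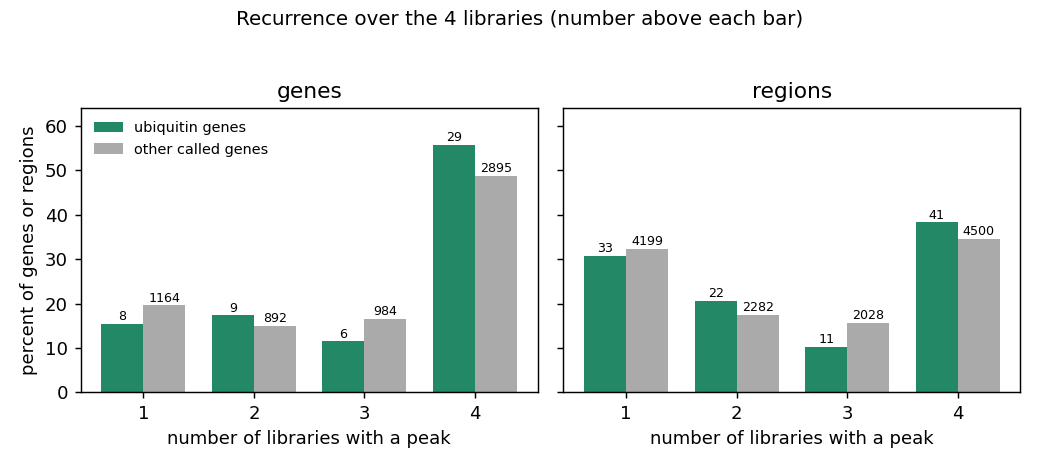
Percent of genes (left) and of regions (right) called in 1, 2, 3 or 4 of the 4 libraries, for the 52 ubiquitin genes (green) and all other called genes (grey), with the number above each bar. The bars at 4 libraries stand at 55.8% against 48.8% of genes and at 38.3% against 34.6% of regions.

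Among the USP deubiquitinases Usp34 had the most peaks. Usp34, a very large deubiquitinase that acts on axin in Wnt signalling, had 6 and 5 peaks in the innervated libraries and 4 and 4 in the denervated libraries, replicate 1 first. Its peaks fell into 5 regions, 3 of them called in all 4 libraries, with covered bases of 451, 501, 501 and 601 in the most 5′ one (chr11:23363838-23364488), in the order innervated 1 and 2, denervated 1 and 2. That region lay 126072 bases before the 3′ end of the gene, while the other 2 regions of 4 libraries lay 1250 and 500 bases before it. Usp36, a deubiquitinase of the nucleolus, had 5, 2, 4 and 4 peaks in the same order, in 3 regions, 2 of them in all 4 lists. Its region chr11:118263760-118268929 joined up to 4 exon blocks in 1 peak and covered 895, 1093, 846 and 896 bases.

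Usp42 had 4, 4, 2 and 3 peaks in 4 regions, Usp38 had 3, 3, 4 and 3 in 3 regions, and Usp53 had 2, 3, 3 and 2 in 3 regions. Usp2, whose covered start inside the gene is shown above, had 3, 2, 2 and 2 peaks in 2 regions of 4 libraries. Usp31 had 2 in every library, likewise in 2 such regions. The widest region of Usp42 covered 901 and 1051 bases in the innervated libraries and 1151 and 1250 in the denervated ones, so the groups did not overlap in that region. A region of 101 bases, called in innervated replicate 2 alone, lay 49 bases from it, and with both counted together the groups would overlap. Over all its regions Usp42 covered 1403 and 1353 bases in the innervated and 1502 and 1852 in the denervated libraries. Usp54 and Usp48 had many regions but uneven calls. Usp54 had 1 peak in innervated replicate 1 and 5 in denervated replicate 1 and none in either replicate 2, over 5 regions of which 4 were in denervated replicate 1 alone. Usp48 had 3, 4, 3 and 0 peaks in 4 neighbouring regions near the 3′ end, and none of them was called in denervated replicate 2. Usp12, a deubiquitinase that works with WD-repeat partners, had 0, 2, 1 and 1 peaks, in 2 regions 48 bases apart.

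Of the 5 OTU deubiquitinases, 4 had a region called in all 4 libraries, and Otud5 was called in 1 library. Otud4 had 1, 2, 2 and 3 peaks, all in 1 region that covered 1197, 999, 999 and 850 bases. Otud7b, also called Cezanne, which prefers certain types of ubiquitin chain, had 1, 2, 1 and 1 peaks in 1 region of 1343, 1343, 1392 and 1293 covered bases, and one of those peaks was the widest of all member peaks. Otud3 covered 590 bases in both innervated libraries and 443 and 492 in the denervated ones. Otud1 had 1, 2, 3 and 1 peaks, and its main region covered 745 bases in 3 libraries and 596 in denervated replicate 2. That region lay at 0.42 of the gene's length, in the 5′ part, where 0 is the 5′ and 1 the 3′ end. Otud5, also known as DUBA, had a single peak of 299 bases, in innervated replicate 2.

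Among the E2 enzymes Ube2o stood apart in number. Ube2o, a large enzyme that joins E2 and E3 activity in 1 chain, had 3, 5, 3 and 5 peaks in 5 regions, 3 of them called in all 4 libraries. Both of its other regions, at the 3′ end, were called in the replicates numbered 2 of each group and in neither replicate 1. The other E2 genes of 4 libraries had 1 such region each. Ube2d1, of the broadly acting UbcH5 group, covered 741, 642, 544 and 692 bases, Ube2q1 covered 299, 249, 249 and 249, and Ube2f, an E2 for the ubiquitin-like protein NEDD8, covered 196, 292, 292 and 195. In Ube2f and Ube2q1 the groups overlapped, and they overlapped in Ube2d1 too. Ube2h, in contrast, was called in both replicates numbered 1 (3 and 2 peaks) and in neither numbered 2, whereas Ube2v1, a catalytically inactive partner of Ube2n, was called in both replicates numbered 2 with 2 peaks each. Ube2g2, an E2 of protein disposal at the endoplasmic reticulum, and Ube2l3, which serves RBR ligases such as parkin, had 1 peak each in denervated replicate 1.

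The 2 ligases had many small regions and uneven calls. Ube3a, the ligase E6AP, had 6, 0, 3 and 0 peaks in the library order used above, over 6 regions, the largest number among the 52 genes. No region of Ube3a covered more than 250 bases in a library. Ubr2, an N-degron ligase, had 0, 2, 5 and 3 peaks in 5 regions, and its longest one (chr17:46929491-46930490) covered 0, 950, 652 and 552 bases. The calls of Ube3a thus followed the replicate number and not the group, and Ubr2 had no peak in innervated replicate 1. Uspl1, the SUMO protease, had 6, 3, 3 and 5 peaks with 3 regions in all 4 lists, and Usp6nl had 2, 2, 3 and 3 with 1 such region.

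Few of the 52 genes were called in 1 group only. Denervated only, that is, in both denervated lists and neither innervated list, was 1 gene, Ube2j2 (1.92%, where 3.42% of all called genes were). Innervated only were 3 genes, Ube2d3, Ube2r2 and Usp21 (5.77%, where 3.14% of all called genes were). No test over genes was made, and each share rests on 1 to 3 genes.

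The call of Ube2j2, an E2 enzyme anchored in the endoplasmic reticulum membrane, did not hold by place. Under its own name it had 0, 0, 1 and 2 peaks. Its main region, chr4:155957173-155957521 on the + strand, was called in all 4 lists under the name Gm5801, with 296, 296, 247 and 296 bases, at sites that lie inside the span of Ube2j2. RefSeq places the symbol Gm5801, a transcribed pseudogene, on chromosome 14, so the name in the lists does not match that gene by place. Counting both names, the region covered 296, 296, 265 and 349 bases, and the groups overlapped. This was the only 1 of the 107 regions that carried a second gene name, and it is counted among the 41 of all 4 libraries. With peaks given to genes by RefSeq span in place of the name, 0 genes were denervated only.

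Ube2d3, a UbcH5-type E2 that works with many ligases, had 1 region, chr3:135465252-135465597 on the + strand, 2617 bases before the 3′ end of the gene. It covered 248 and 346 bases in the innervated libraries and 0 and 0 in the denervated ones. Ube2r2, an E2 of the Cdc34 type that serves cullin-RING ligases, also had 1 region, chr4:41190701-41191047 on the + strand, 2323 bases before the 3′ end, with 248 and 347 bases against 0 and 0. Both genes thus had 1 peak per innervated library at the same place and none in the denervated lists. Usp21, a deubiquitinase known for histone H2A, differed from them: its peak in innervated replicate 1 (149 bases, 50 bases after an annotated start) and its 2 peaks in innervated replicate 2 (149 and 199 bases) did not overlap and made 3 regions of 1 library each. On the within-list percentile of the score, which is 100 for the smallest score and was read as strongest, the peaks of Ube2d3 stood at 38 and 64 and those of Ube2r2 at 40.8 and 23.1.

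By place, 2 regions were denervated only (1.87%, where 3.67% of all regions were) and 4 were innervated only (3.74%, where 4.2% of all regions were). The denervated-only regions were in Ubr2 and Usp38. In Ubr2, chr17:46929241-46929391 on the - strand covered 101 and 151 bases in the denervated libraries, and it lay 99 bases from the long region that innervated replicate 2 also had. In Usp38, chr8:81014059-81014258 on the - strand covered 200 and 100 bases, 648 bases after an annotated start while the other 2 regions of the gene lay at 0.88 and 0.86 of its length. The innervated-only regions were the 2 of Ube2d3 and Ube2r2 and 1 each in Usp34 and Usp48. In Usp34, chr11:23464429-23464579 on the + strand covered 151 bases in both innervated libraries, 23765 bases from the nearest other region. In Usp48, chr4:137656888-137657038 on the + strand covered 151 and 101 bases, and the next region, called in innervated replicate 2 and denervated replicate 1, was 49 bases away. The regions of Ubr2, Usp38, Usp34 and Usp48 covered at most 200 bases, below the member median of 298 bases per peak.

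**Figure D3:**
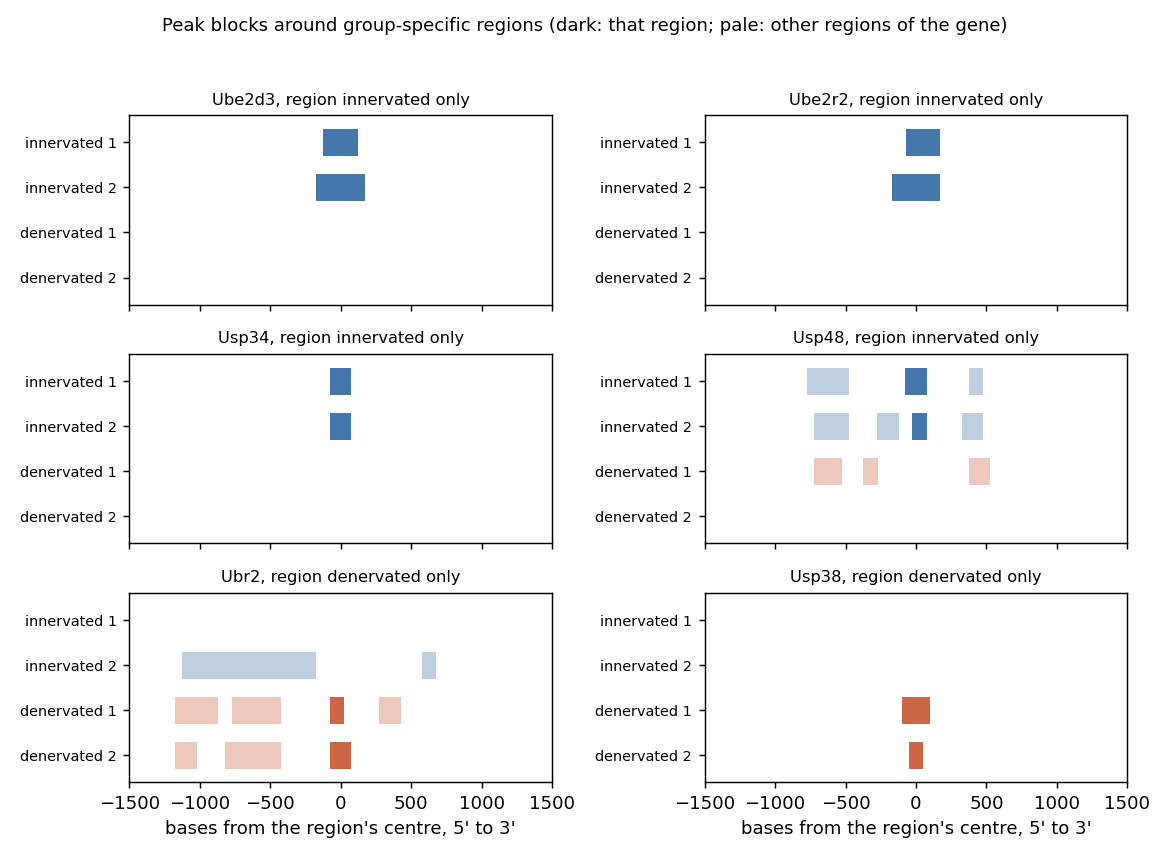
Peak blocks of the 4 libraries (rows) within 1500 bases of the centre of each of the 6 group-only regions (panels), with the distance from the centre on the x axis in bases, 5′ to 3′ along the gene. Dark blocks belong to that region and pale blocks to other regions of the gene. The regions of Ube2d3, Ube2r2, Usp34 and Usp38 stand alone, while those of Ubr2 and Usp48 have other blocks beside them.

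The other genes with missing libraries followed no single order. Usp48 and Usp8, an endosomal deubiquitinase, were missing from denervated replicate 2, Usp46 from innervated replicate 2, and Ubr2, Usp12 and Usp32 from innervated replicate 1. Ube2h, Ube3a and Usp54 were called in both replicates numbered 1 and in neither numbered 2, and Ube2v1 and Usp3 in both replicates numbered 2 and in neither numbered 1. Thus 5 genes split by number and 4 by group, with Ube2j2 counted by its name. The splits by number held 5.77% (replicates 1) and 3.85% (replicates 2) of the ubiquitin genes, and those by group 5.77% (innervated) and 1.92% (denervated). Among the other called genes the splits by number held 1.9% (replicates 1) and 2.07% (replicates 2), and those by group held 3.12% (innervated) and 3.44% (denervated). Innervated replicate 2 with denervated replicate 1 held a further 3.5% of the other called genes, and innervated replicate 1 with denervated replicate 2 held 0.994%. No ubiquitin gene had either of these crossed splits. Of the 8 genes found in 1 library, 7 (87.5%) were in denervated replicate 1: Ube2g2, Ube2l3, Usp22, Usp27x, Usp28, Usp30 and Usp40. The other was Otud5. Among the other called genes found in 1 library, 363 of 1164 (31.2%) were in denervated replicate 1. No test was made of this difference. The direction of the score is uncertain, and read the other way the order of these ranks turns round. With small scores as strong, the best score percentile was 0.857 in Ube2l3, 2.85 in Usp28, 4.49 in Ube2g2 and 5.83 in Usp22, higher in Usp40 (24.7) and Usp30 (41.5), and 85.8 in Usp27x. Over the genes of 1, 2, 3 and 4 libraries the median best percentile was 15.3, 58, 58 and 77.6, and over the other called genes it was 35.1, 55.2, 67.7 and 76.9.

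The number of ubiquitin genes and peaks did not separate the groups. In innervated replicates 1 and 2 and denervated replicates 1 and 2, 38, 40, 46 and 36 of the genes had a peak. This gave 39 ± 1.41 genes per innervated and 41 ± 7.07 per denervated library (SD, n = 2 each), with overlapping ranges (two-sided exact permutation p = 1, where 0.333 is the smallest p that 2 against 2 libraries allow). The peaks numbered 75, 73, 87 and 69, with means of 74 ± 1.41 and 78 ± 12.7 (SD, n = 2 each; exact permutation p = 1). Denervated replicate 1 was highest and denervated replicate 2 lowest on both counts, and without denervated replicate 1 the differences, denervated minus innervated, turned from 2 to -3 genes and from 4 to -5 peaks. The other called genes numbered 4115, 4607, 4560 and 4198 in the same order, so the library highest in ubiquitin genes was not the highest in other genes. Peaks per called ubiquitin gene were 1.97, 1.82, 1.89 and 1.92, below the 2.13 to 2.25 of the other called genes in each library.

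More peaks in both denervated than in both innervated libraries were found in 3 genes, Ube2j2, Ubr2 and Usp6nl, where 6.8% of all called genes did so. Ube2j2 is counted here by its name, and its main region was called in all 4 lists. The reverse was found in 5 genes, Ube2d3, Ube2r2, Usp21, Usp34 and Usp42, where 7.63% of all called genes did so. Of the 29 genes called in all 4 lists, 13 had the same number of peaks in every library, a count with no share of other genes beside it. The 52 genes had a median of 2 regions each, as the other called genes did, and a mean of 2.06 against 2.2. With 1 region there were 25 genes (48.1% against 43.4%), and 14 had at least 3 (26.9% against 29.3%). The most was 6, in Ube3a, against 27 among the other called genes.

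Member peaks were somewhat wider than those of other genes when the libraries were pooled. Width, the sum of a peak's exon blocks, had a median of 298 bases (quartiles 151 and 499, range 100 to 1392) over 304 member peaks, against 250 bases (quartiles 150 and 447) over 38623 others. The library medians were 250 and 300 bases in the innervated and 250 and 348 in the denervated libraries, against 249 to 250 for other genes. The 2 groups overlapped in width, with means of 275 ± 35.4 and 299 ± 69.3 bases (SD, n = 2 each; exact permutation p = 1). In both replicates numbered 1 the member median equalled that of other genes to within 1 base, and the wider medians were those of the replicates numbered 2. Peaks of 2 or more exon blocks made up 17.3%, 17.8%, 10.3% and 18.8% of member peaks in the library order above, and 11.5% to 14.8% of other peaks.

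Within the 41 regions of all 4 libraries, covered bases seldom separated the groups. In 29 regions (70.7%) the groups overlapped. In 7 regions (17.1%) both denervated libraries covered more bases than both innervated ones, where 14.8% of all such regions did so, and in 5 regions (12.2%) both covered fewer, where 13.3% did so. Wider in denervated muscle were 1 region each of Ube2o, Usp31, Usp34, Usp35, Usp4, Usp42 and Usp53. Wider in innervated muscle were 1 region each of Otud3, Usp36 and Usp47 and 2 of Uspl1. Such a separation can depend on the joining rule, as in Usp42. The most 3′ region of Usp47, a deubiquitinase linked to DNA repair, covered 601 and 651 bases in the innervated libraries against 351 and 351 in the denervated ones. In Usp4 the order was the reverse, with 248 and 298 bases against 398 and 398. In Uspl1, 1 region covered 352 and 599 bases against 101 and 251. The peak width follows the number of reads as well as the site, and with depth unknown its part in these differences was not tested.

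**Figure D4:**
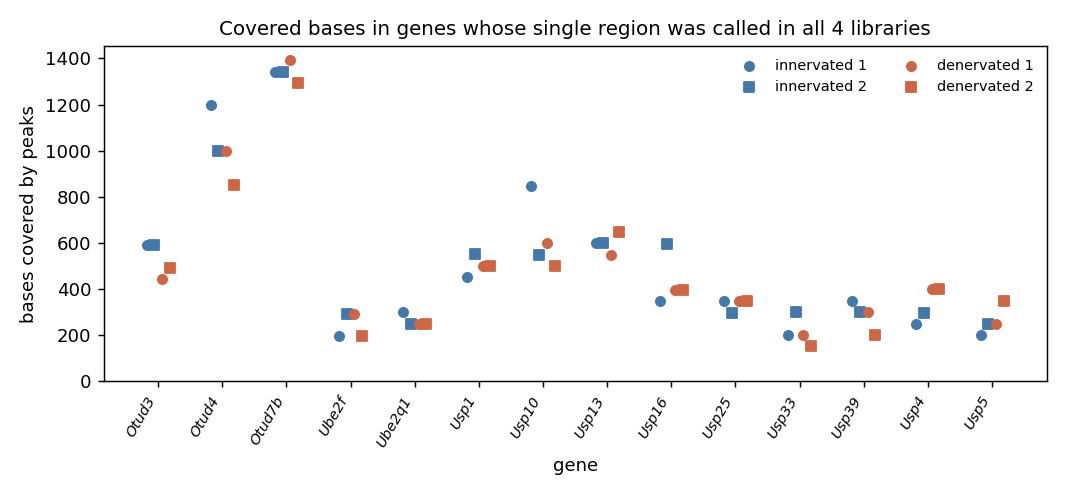
Bases covered by peaks (y axis) in each of the 14 genes whose single region was called in all 4 libraries (x axis), for innervated (blue) and denervated (orange) replicates 1 (circles) and 2 (squares). In Otud3 both denervated points lie below both innervated points, in Usp4 both lie above, and in Otud7b all 4 lie between 1293 and 1392 bases.

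Peaks of the ubiquitin genes lay near the 3′ end of the gene. Along the gene's span in RefSeq, introns included, the median position of a peak was 0.91, against 0.85 for peaks of other called genes. With the span cut into 10 equal parts, the last part held 55.6% of member peaks against 41.4% of other peaks, the part before it held 20.4% against 15.4%, and the first part held 4.28% against 7.56%. The excess in the last part was seen in each library, at 53.3%, 56.2%, 55.2% and 58% of member peaks against 39.3% to 42.7% of other peaks. At least 1 region in the last part was found in 38 of the 52 genes, and 8 genes had a region in the first part: Ube2d1, Ube2h, Ube2j2, Ube3a, Ubr2, Usp21, Usp27x and Usp38. For these 2 counts of genes no share of other called genes is given. No region of the first part was in more than 2 libraries. The ubiquitin genes are long, with a median span of 46592 bases against 25078, and a stretch of fixed length at the 3′ end takes a smaller share of a long gene. The part of gene length in the position was not tested.

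**Figure D5:**
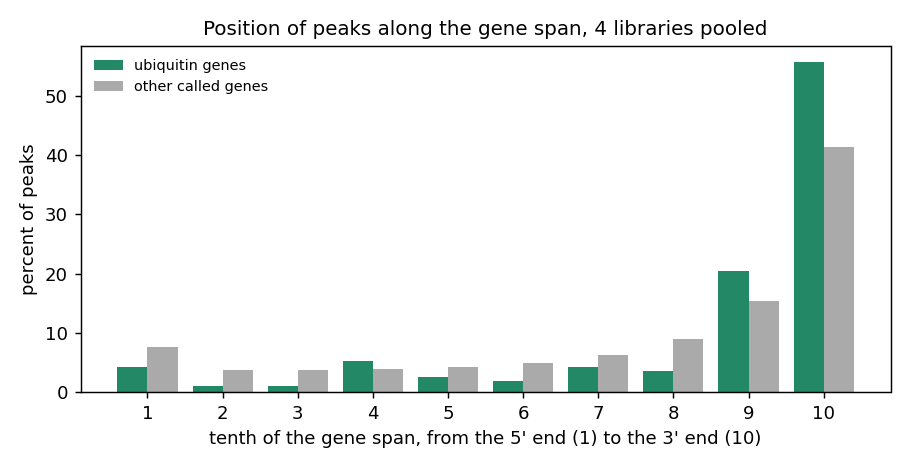
Percent of peaks (y axis) by position, with the gene span cut into 10 equal parts numbered from the 5′ end (1) to the 3′ end (10), for the ubiquitin genes (green, 304 peaks) and other called genes (grey, 38491 peaks), the 4 libraries pooled. Part 10 holds 55.6% of the green and 41.4% of the grey peaks.

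The median position per library was 0.901 and 0.913 in the innervated and 0.942 and 0.942 in the denervated libraries. The groups did not overlap, with a difference of 0.0348 and the smallest p that the design allows (exact permutation p = 0.333), which misses any usual threshold. The difference was smaller under several other settings: 0.00101 with equal numbers of peaks per list (exact permutation p = 1), 0.00189 with the larger-score side of each list (p = 0.667), 0.0215 with the smaller-score side (p = 1) and 0.00872 with deubiquitinases and E2 enzymes alone (p = 1). It was 0.0113 without Usp6nl, a setting added after the data were seen (exact permutation p = 0.667). For other called genes the medians ran from 0.838 to 0.859, with no shift in the same direction (difference -0.0104, exact permutation p = 0.667). The share of member peaks in the first of these 10 parts was 5.33% and 0% in the innervated and 5.75% and 5.8% in the denervated libraries (exact permutation p = 0.333).

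Other genes of the pathway were counted in 5 fixed lists. A list of 33 genes held other deubiquitinases and genes related to them. Not all of these are active deubiquitinases, Prpf8 and Pan2 among them, and Psmd14 was also in the proteasome list. None of these 3 genes had a peak. Of the 33 genes, 13 had a peak and 8 of them had it in all 4 libraries: Otulin, which cuts linear ubiquitin chains, Tnfaip3 (A20), Yod1, Vcpip1, Zranb1, Mindy1, Mindy2 and Zup1. Of 17 other E1 and E2 genes 4 had a peak, among them the E1 enzyme Uba6 in all 4 libraries, and Uba1, the main ubiquitin E1, had none. In the list of genes for ubiquitin and its relatives, Isg15 had a peak in all 4 libraries and Ufm1 in fewer, and the ubiquitin genes Ubb and Rps27a had none. Of 10 other N-degron genes 4 had a peak, 2 of them (Fbxo11 and Rnf126) in all 4. Of 46 proteasome genes 7 had a peak (15.2%), with Psma4, Psmd5 and Psmd7 in all 4 libraries. In these 5 lists 0 genes were denervated only and 0 were innervated only, against 3.42% and 3.14% of all called genes.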

How the data were processed

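RNA of 4 muscle samples was profiled by m6A MeRIP-seq, with an IP and an input library each. The authors deposited 4 peak lists, 1 per IP library, with position, strand, exon blocks, gene name and a score, per the file headers. STAR 2.4.2a, ChIPseeker and the build mm10 are named in the submitters' processing notes. Not given in the sources used here are the peak caller and what the authors' score, which ran from 0 to 0.023, stands for. Scores served only to rank peaks within a list. Small scores were read as strong, a reading that is uncertain: peaks of the smaller-score side recurred in another list in 93.8%, 88.7%, 92.5% and 87.1% of cases in the 4 lists, and those of the larger-score side in 91%, 85.6%, 86.7% and 87.9%.

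Genes were taken by the names in the lists. Of 5987 names, 5718 matched a RefSeq symbol (GRCm38.p6), 250 an older symbol and 19 none. Peaks were joined into regions where blocks overlapped by 1 base or more on 1 strand. Position was the peak's middle along the gene's RefSeq span, and exon, UTR and genome sequence were not used here. Library values of the groups, 2 against 2, entered two-sided exact permutation tests. No test was made over genes, which are not replicates. Counts are set beside those of all called genes. Named with values were genes and regions called in 1 group only, the 6 genes with most regions of all 4 libraries, all of classes of at most 10 genes, and the 10 with most regions in the larger families; genes of 1 library were named by symbol, and the list genes of 1 group. Other genes named, with their values, were chosen after the values were seen. Some genes of the lists are not reported here. The genes and lists were chosen with earlier results of these data known. Alternatives were other score sides, equal list lengths, genes by span, narrower name rules, other linking of peaks, the replicate block and leaving out each library. Scripts were tested on simulated data and used Python 3.11.15, NumPy 2.4.6 and SciPy 1.17.1, with Matplotlib 3.10.9 for figures.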

Additional observations from a re-analysis of the deposited data

How the results depend on the processing

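The count of genes called in all 4 libraries was 29, and it stayed within 1.5 times of that under every alternative except the score sides, where it was 10 (smaller-score side of each list) and 7 (larger-score side). With the smaller-score side, the differences between groups, denervated minus innervated, turned to -1.5 genes, -3.5 peaks and -24.5 bases of median width. There, 1 gene and 2 regions were innervated only, 1 region was denervated only, and regions per gene were 1.55. With the larger-score side, 2 genes and 6 regions were denervated only, 3 genes were innervated only, and regions per gene were 1.93. The genes changed with the side. Ube2f was denervated only on the smaller-score side and innervated only on the larger-score side, and Usp33 was the reverse. Ubr2 (denervated only) and Usp8 (innervated only) were new on the larger-score side. With equal numbers of peaks per list the difference in peaks turned to -0.5, and with genes by span 0 genes were denervated only. With deubiquitinases and E2 enzymes alone the width difference turned to -0.25 bases, 1 region was denervated only and regions per gene were 1.88. Linking peaks by a reciprocal overlap of 50% gave 5 denervated-only regions and 2.58 regions per gene, and joining peaks within 100 bases gave 1 and 1.81. Except where a setting keeps fewer peaks, libraries or genes, the cause was not tested.

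Leaving out 1 library at a time, with no test, the difference ran from -3 to 7 genes, from -5 to 13 peaks and from -25 to 73 bases of width. It was negative without denervated replicate 1 for genes and peaks, and for width without denervated replicate 2 (-25) and innervated replicate 1 (-1). Calls then rest on a single library in 1 group: 1 to 8 genes and 4 to 18 regions were denervated only, most without denervated replicate 2 (8 and 18), 3 to 5 genes and 5 to 12 regions were innervated only, and regions per gene ran from 1.92 to 2.12. Without denervated replicate 2, the genes added were the 7 found in denervated replicate 1 alone.

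The calls of Ube2d3, Ube2j2 and Usp21 were lost on both score sides and that of Ube2r2 on the smaller-score side. A replicate block, with same-numbered libraries as pairs, can change neither the mean differences nor the calls, so only the p-values could differ. For the differences of 2 genes, 4 peaks, 24 bases and 0.0348 of the span, the exact sign-flip permutation p was 1, 1, 1 and 0.5. The smallest possible p was 0.5. The labels do not say that numbers mark animals. The differences between numbers 1 and 2 in peaks per gene were hardly related between the groups (r = 0.01 across 5987 genes, which are not independent replicates). This correlation cannot decide whether numbers mark animals, since differences in calls may also be technical. Unknown read depth limits every statement on a missing peak.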
